A study of Danio rerio with 2 samples.

Results

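Genes of the Notch pathway and of neurogenesis were followed in head tissue of zebrafish embryos that carried an rbm24a mutation and of wildtype embryos. The group was set by name: notch1a, notch3, dla, dld, ascl1a, ascl1b, neurog1, neurod1, sox2 and elavl3. A name that the annotation gives without its final letter counts for both copies, so notch1b came in with notch1a. The 10 names gave 11 member genes among the 51544 features of the deposited table, and all 11 passed the filter of a mean of at least 1 CPM (the reads of a feature scaled to a common library total). The mutant embryos (rbm24a-/-) carried an 8 bp deletion made with TALEN nucleases in the first exon of rbm24a, which encodes an RNA-binding protein, and the controls were wildtype. Both groups were AB strain embryos at 33 hours post fertilisation (hpf), and the tissue was head tissue anterior to the developing ear (the otic vesicle). The series title places the study around Rbm24, translation and crystallin proteins of the lens. How many embryos went into a library is not given in the sources used here.

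In the developing vertebrate brain, neural progenitors and the neurons they give rise to are kept in balance by Notch signalling. A cell that is becoming a neuron makes proneural transcription factors, which switch on Delta ligands. Delta on its surface activates Notch receptors on the neighbours, and the released receptor fragment switches on her genes there, which repress proneural genes and keep those cells as progenitors. Cells that escape this inhibition leave the cell cycle and switch on neuronal genes such as elavl3. At the stage studied, the embryonic zebrafish brain and retina are producing neurons.

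The mutant library held 16667612 reads on features and the wildtype library 14148577. With 1 library per group, no difference below has a replicate check and no p-value was computed. Intervals are 95% exact intervals for counting error only, and PCR reads are not independent molecules. rbm24a itself had 121 reads in mutant heads and 224 in wildtype heads, 2.18-fold lower (interval 1.74 to 2.74). The deletion need not remove the transcript, so this level does not measure loss of the protein. Defining markers of lens and of red blood cells were much lower, with median log2 ratios of -2.94 and -2.45. All 9 measured lens markers were at least 2-fold lower, with 228 CPM in sum in mutant heads, against 1518 CPM in wildtype heads. All 6 measured red cell markers were too, with sums of 112 CPM in mutant heads and 745 CPM in wildtype heads. None of these 15 was at 0 in either library, and their part in the results below was not tested. The median log2 ratio over all 18094 features that passed the filter was -0.001, with a pseudocount of 1 CPM on this scale as throughout.

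The members differed by small folds between the libraries, and most were lower in the mutant library. The receptor genes notch1a and notch3, the proneural genes ascl1a and neurog1, and the neuronal genes neurod1 and elavl3 were lower in the mutant library by between 1.20-fold and 1.65-fold. The progenitor gene sox2 was 1.22-fold higher, while dla, dld and ascl1b lay within 1.1-fold of the wildtype level. Of the 11 members, 8 lay below 0 and 3 above 0 on the log2 scale, with a median of -0.26. Over all features, 50.2% lay below 0. No member was past 2-fold, which 2.82% of all features were in the lower direction and 2.22% in the higher direction. By at least 1.5-fold, 1 member (9.09%) was lower and none was higher. Over all features, weakly read ones included, 7.88% were lower and 6.95% were higher by that much. The members' share of calls was near that background.

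**Figure D1:**
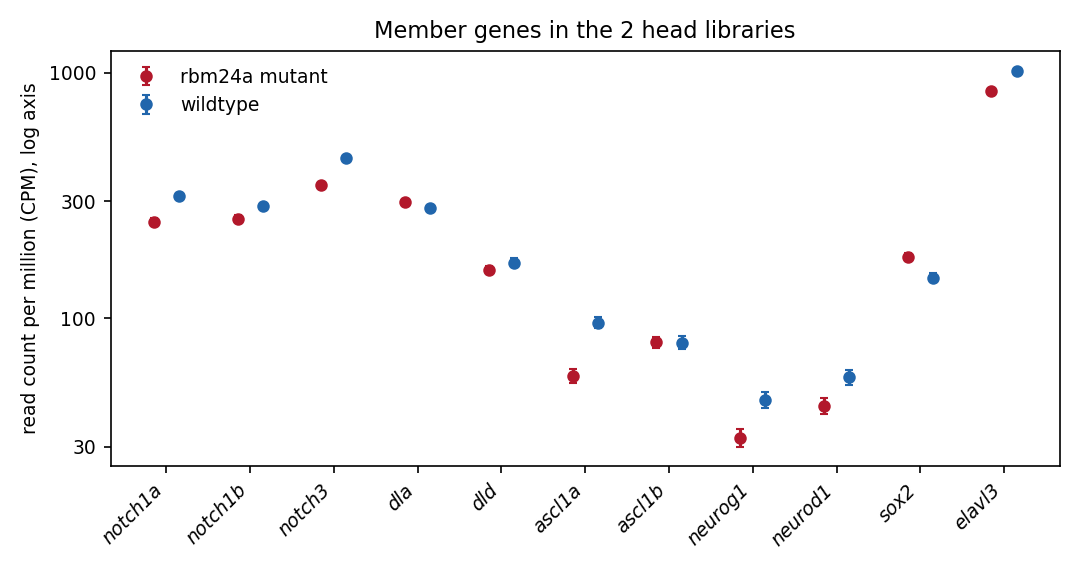
Level of each member in CPM (log axis) in the rbm24a mutant library (red, left of each pair) and the wildtype library (blue, right), with exact 95% Poisson intervals for counting error. ascl1a had 58.3 CPM in mutant heads and 96.2 CPM in wildtype heads, while the points of ascl1b, at 79.8 and 79.7 CPM, lie level.

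All members are well measured, and weakly read features widen the spread of ratios over the whole table. The members were therefore also set beside the 6017 features that averaged 25 CPM or more, a level that all 11 exceed and that was chosen with the values known. Among these features 3.79% were lower by at least 1.5-fold (9.09% of the members were) and 2.51% were higher (no member was). Their middle 90% ran from a CPM ratio of 0.707 to 1.35, and their middle 50% from 0.895 to 1.11. The members' median log2 ratio of -0.26 lay below the lower quartile of these features, -0.16. Of the members, 2 (ascl1a and neurog1) lay below the middle 90% and none above it. A further 5 members lay between the lower edges of the 2 ranges, 3 lay in the middle 50%, and sox2 alone lay between the upper edges. The counting interval left out a ratio of 1 for 10 of the 11 members, 8 lower and 2 higher. It did so for 57.9% of the 6017 features too, and 30.4% of the 6017 were lower with such an interval. A difference beyond counting error was thus common at this depth.

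**Figure D2:**
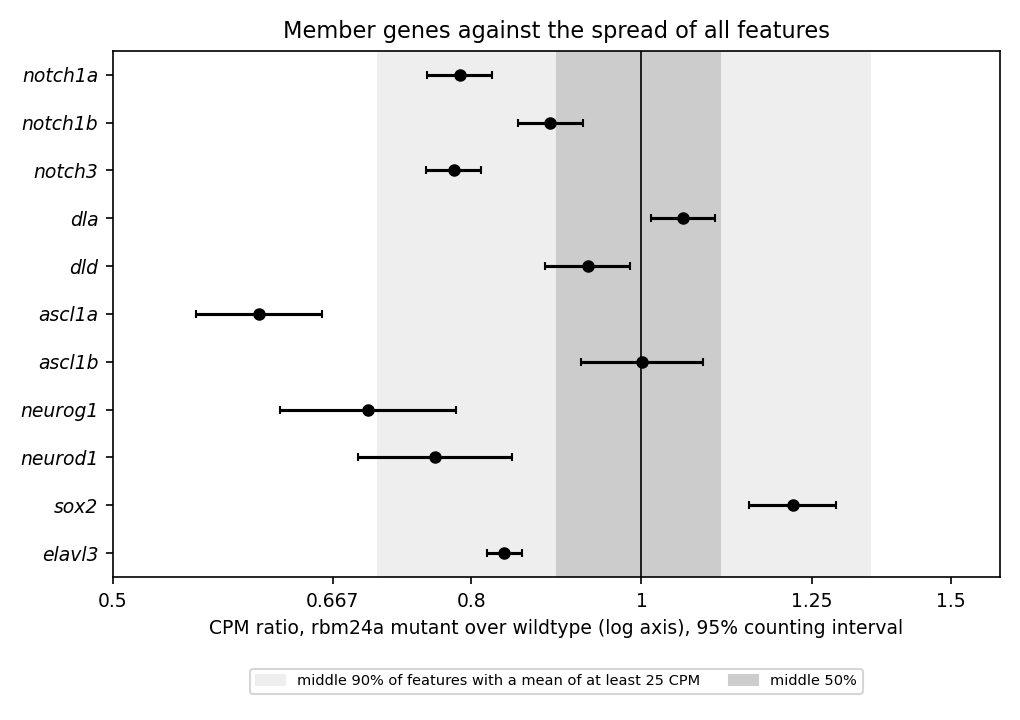
CPM ratio of each member, rbm24a mutant over wildtype (log axis), with its 95% counting interval; the shaded bands hold the middle 90% (0.707 to 1.35) and the middle 50% (0.895 to 1.11) of the 6017 features that averaged 25 CPM or more. The points of ascl1a and neurog1 lie left of the wider band, and dla, dld and ascl1b lie in the narrower one.

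Of the 4 Notch receptor genes, which receive the signal, all had a ratio below 1, none was lower by at least 1.5-fold, and for notch2 the counting interval held 1. notch3 (ENSDARG00000052139), a receptor of neural progenitors, had 351 CPM (5847 reads) in mutant heads and 449 CPM (6350 reads) in wildtype heads. This was 1.28-fold lower (interval 1.23 to 1.33), and 9.36% of features above 25 CPM had a ratio as low or lower. notch1a (ENSDARG00000103554) had 248 CPM in mutant heads and 315 CPM in wildtype heads, 1.27-fold lower (interval 1.22 to 1.32), a size that 9.94% of those features reached. notch1b (ENSDARG00000052094), the other copy, had 255 CPM in mutant heads and 287 CPM in wildtype heads, 1.13-fold lower (interval 1.08 to 1.18). notch1b thus lay just outside the lower edge of the middle 50% of features, nearer to the wildtype level than notch1a. The remaining receptor gene, notch2, had 90.2 CPM in mutant heads, against 93.9 CPM in wildtype heads (interval of the ratio 0.892 to 1.03). The 4 receptor genes together had 944 CPM in mutant heads and 1145 CPM in wildtype heads. In tissue like this, fewer cells of a type and less RNA per cell cannot be told apart. Notch receptors are also expressed in vessels, and there all 7 measured endothelial markers lay above 0, with 178 CPM in sum in mutant heads and 147 CPM in wildtype heads and none at 0. Their part in the receptor levels was not tested.

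The Delta ligands among the members lay close to the wildtype level. dla (ENSDARG00000010791), a Delta gene of newly forming neurons, had 297 CPM in mutant heads, against 282 CPM in wildtype heads, a ratio of 1.06 (interval 1.01 to 1.1). dld (ENSDARG00000020219), another Delta gene of the same cells, had 157 CPM in mutant heads and 169 CPM in wildtype heads, 1.07-fold lower (interval 1.01 to 1.13). The ratios of these ligands leaned in opposite directions and both lay in the middle 50% of features above 25 CPM. Counted within a library, there were 49.7 dla reads per 100 reads of notch1a and notch3 in mutant heads and 36.9 in wildtype heads, a ratio of 1.35 (interval 1.28 to 1.42). That ratio does not depend on how the libraries are scaled. Over the whole list of 9 Delta and Jagged ligands, 4 lay above 0 and 5 below, none was past 1.5-fold, and the median log2 ratio was -0.07. The list's sum leaned the other way, with 1057 CPM in mutant heads, against 1024 CPM in wildtype heads. Of the ligands outside the members, dlb had 303 CPM in mutant heads and 256 CPM in wildtype heads, and jag1b 56.2 CPM in mutant heads and 44.8 CPM in wildtype heads. dlc stood at 117 CPM in mutant heads, against 143 CPM in wildtype heads, and jag1a at 26.5 CPM in mutant heads and 34.6 CPM in wildtype heads.

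The identity of the Delta genes rests on the names used. The names table calls both dla and dld by the mammalian symbol DLL1, and they were told apart by their neighbours in the RefSeq table of assembly GRCz12tu. The dla feature shared 11 of 14 named neighbours with dla there. The dld feature shared 9 of 12 with the entry that lists dld as a synonym and had the same span, 6232 bp. A further feature carries the symbol DLD, which in mammals names dihydrolipoamide dehydrogenase, a mitochondrial enzyme, and it was not taken as the Delta gene. It had 141 CPM in mutant heads and 152 CPM in wildtype heads, a log2 ratio of -0.11 against -0.10 for dld. The NOTCH1 features were separated in the same way, with 12 of 15 neighbours shared for notch1a and 13 of 16 for notch1b.

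Genes that process the receptors or carry the signal varied around 0. Of 23 measured, 8 lay above 0 and 15 below, with a median log2 ratio of -0.04, and 1 was lower by at least 1.5-fold (4.35%, against 7.88% of all features). That was mfng, a glycosyltransferase of the Fringe family that modifies Notch, with only 17 reads in mutant heads, against 35 in wildtype heads. The most abundant members of this list differed little. LFNG, also a Fringe, had 404 CPM in mutant heads and 418 CPM in wildtype heads, and MIB1, the ubiquitin ligase that makes Delta active, had 167 CPM in mutant heads and 191 CPM in wildtype heads. On the higher side, POFUT1, which adds fucose to Notch, had 45.9 CPM in mutant heads, against 33.4 CPM in wildtype heads (ratio 1.37, interval 1.22 to 1.54). adam17a, a protease that sheds receptor ectodomains, had 53.2 CPM in mutant heads and 40.6 CPM in wildtype heads (ratio 1.31, interval 1.18 to 1.46).

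The her genes that Notch switches on held the largest differences of the pathway. Of 15 measured targets, 9 lay below 0 and 6 above, with a median log2 ratio of -0.21. By at least 1.5-fold, 3 were lower (20.0%, against 7.88% of all features) and none was higher, and 2 of the 3 were past 2-fold. With DESeq2 scaling 2 were lower by at least 1.5-fold. her4.5 had 200 reads in mutant heads and 807 in wildtype heads, or 12.0 CPM and 57.0 CPM, 4.75-fold lower (interval 4.07 to 5.58). her4.1 had 17.0 CPM in mutant heads, against 43.6 CPM in wildtype heads (2.56-fold lower, interval 2.22 to 2.96). The third was her15.1, with 82.1 CPM in mutant heads and 126 CPM in wildtype heads, 1.54-fold lower (interval 1.43 to 1.65).

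The her4 genes are near-identical tandem copies, as are the her15 genes, so reads may be split between copies and their single values are uncertain. Copies of 1 family did point in opposite directions: her4.4 had a log2 ratio of 0.34 and her15.2 one of 0.21. Summed over the 5 her4 copies there were 139 CPM in mutant heads and 219 CPM in wildtype heads, 1.57-fold lower (interval 1.49 to 1.66). For the her15 copies the sums were 135 CPM in mutant heads, against 172 CPM in wildtype heads, 1.27-fold lower (interval 1.20 to 1.35). Counted by family, the her4 genes were thus past 1.5-fold and the her15 genes were not. The her4 sum is lower by more than any receptor, and the her15 sum by about as much as notch1a and notch3.

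Targets outside these families lay on both sides of 0, and none was past 1.5-fold. her12 had 48.7 CPM in mutant heads and 70.5 CPM in wildtype heads (1.45-fold lower, interval 1.32 to 1.59). nrarpb, a feedback inhibitor of Notch and the most abundant target, had 368 CPM in mutant heads and 449 CPM in wildtype heads, and its copy nrarpa 202 CPM in mutant heads, against 235 CPM in wildtype heads. These ratios, 0.819 for nrarpb and 0.863 for nrarpa, were between those of notch3 and notch1b. her6 and her9, relatives of mammalian Hes1 and Hes4 whose expression in the brain is in part independent of Notch, had log2 ratios of 0.18 and 0.03. HEY1 and HEY2, targets that vessels express too, stood at 0.08 and 0.44. her6, her9, HEY1, HEY2, her4.4 and her15.2 are named here after their values were seen.

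**Figure D3:**
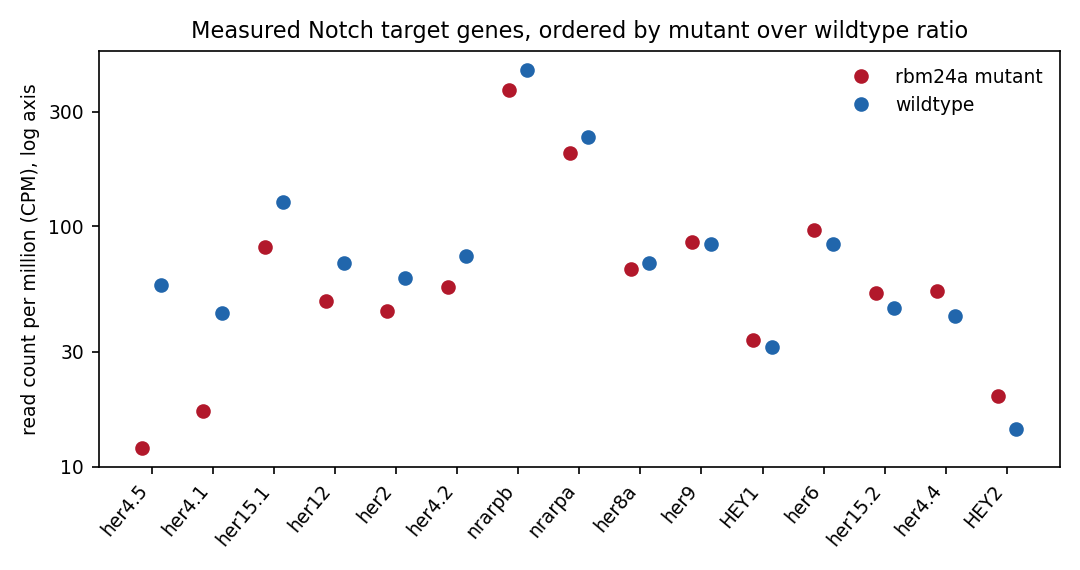
Level in CPM (log axis) of the 15 measured Notch target genes in the rbm24a mutant library (red, left) and the wildtype library (blue, right), ordered from the lowest to the highest ratio of mutant over wildtype. her4.5 and her4.1 stand apart on the left, with 12.0 and 17.0 CPM in the mutant library and 57.0 and 43.6 CPM in the wildtype library, while HEY2 on the right is higher in the mutant library.

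Among the proneural genes, which commit progenitors to a neuronal fate, ascl1a differed most of those among the members. ascl1a (ENSDARG00000038386) had 58.3 CPM (971 reads) in mutant heads and 96.2 CPM (1361 reads) in wildtype heads. This was 1.65-fold lower (interval 1.52 to 1.79), and 2.36% of features above 25 CPM were as low or lower. Its copy ascl1b (ENSDARG00000101628) had 79.8 CPM (1330 reads) in mutant heads and 79.7 CPM (1128 reads) in wildtype heads, a ratio of 1.00 (interval 0.924 to 1.08). Both copies arose from 1 ancestral gene and serve as proneural factors in the brain, yet only the ascl1a interval left out 1. Set against each other within a library, there were 73.0 ascl1a reads per 100 ascl1b reads in mutant heads, against 121 in wildtype heads. The ratio of these shares was 0.605 (interval 0.539 to 0.680). Read counts do not rank the 2 copies, since a longer gene gives more reads. On the deposited RPKM scale (reads scaled by feature length and library depth) ascl1b was the higher copy in both libraries. It had 62.7 RPKM in mutant heads and 62.6 RPKM in wildtype heads, against 29.5 and 48.7 RPKM for ascl1a. Summed, the copies had 138 CPM in mutant heads and 176 CPM in wildtype heads.

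neurog1 (ENSDARG00000056130), the proneural factor of cranial ganglia and of much of the early brain, had 32.6 CPM (543 reads) in mutant heads and 46.6 CPM (660 reads) in wildtype heads. It was 1.43-fold lower (interval 1.28 to 1.61), just outside the middle 90% of features above 25 CPM. neurod1 (ENSDARG00000019566), a factor of cells already committed to a neuronal fate, had 44.0 CPM (733 reads) in mutant heads and 57.7 CPM (816 reads) in wildtype heads, 1.31-fold lower (interval 1.19 to 1.45). The intervals of neurog1 and neurod1 overlap, and that of ascl1a overlaps with that of neurog1 alone. Both genes are also used in cranial ganglia. Of 14 measured ganglion markers 8 lay above 0 and 6 below, with 150 CPM in sum in mutant heads and 144 CPM in wildtype heads and none at 0. The lowest of them was POU4F1, a transcription factor gene of sensory neurons, with a ratio of 0.556 (interval 0.422 to 0.729). The highest was a copy of NTRK3, with 36 reads in mutant heads and 18 in wildtype heads (ratio 1.70, interval 0.939 to 3.18). Also on the higher side, a copy of ISL2 had a ratio of 1.42 (interval 1.07 to 1.90). The part of the ganglia in the neurog1 and neurod1 levels was not tested.

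The wider list of 19 measured neural basic helix-loop-helix (bHLH) genes, of which 4 are members, leaned further. Of the 19, 16 lay below 0 and 3 above, and the median log2 ratio was -0.56, or -0.36 with a pseudocount of 5 CPM. By at least 1.5-fold 9 were lower (47.4%, against 7.88% of all features) and none was higher. Without the members it was 8 of 15 (53.3%), with a median of -0.63. Of the 8 genes that averaged 25 CPM or more, 3 were lower by that much, where 3.79% of all such features were. atoh7, needed for retinal ganglion cells, was lowest, with 167 reads in mutant heads and 495 in wildtype heads (3.49-fold lower, interval 2.92 to 4.19). OLIG2, a factor of motor neuron and glial precursors, had 7.08 CPM in mutant heads, against 14.5 CPM in wildtype heads (2.05-fold lower without a pseudocount, interval 1.62 to 2.59). BHLHE22, a factor of retinal and other interneurons, had 254 reads in mutant heads and 413 in wildtype heads (1.92-fold lower, interval 1.63 to 2.25).

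The better-measured genes of that list did not all share this. NEUROD4, a factor that acts after the proneural step, had 93.4 CPM in mutant heads and 158 CPM in wildtype heads (1.69-fold lower, interval 1.58 to 1.80), about the same fold as ascl1a. nhlh2, a bHLH factor of newborn neurons and the most abundant of the list, had 212 CPM in mutant heads, against 242 CPM in wildtype heads, only 1.14-fold lower (interval 1.08 to 1.19). Some of these genes also belong to other tissues. TAL1, with 69 reads in mutant heads and 111 in wildtype heads, is a factor of blood cells as well, and the red cell markers given above were lower too. atoh7 is in the retina marker list too, where 8 of 11 measured markers lay below 0 (72.7%, against 50.2% of all features) and 4 were lower by at least 1.5-fold (36.4%, against 7.88%). The retina markers summed to 404 CPM in mutant heads and 446 CPM in wildtype heads with none at 0. Without atoh7 the median of the bHLH list was -0.53. The part of the retina and of blood cells in the other genes was not tested.

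On the progenitor side, sox2 went against the receptors. sox2 (ENSDARG00000070913), a transcription factor that maintains neural progenitors, had 178 CPM (2973 reads) in mutant heads and 146 CPM (2070 reads) in wildtype heads. The ratio was 1.22 (interval 1.15 to 1.29), and 11.2% of features above 25 CPM had a ratio as high or higher. Within a library there were 29.8 sox2 reads per 100 reads of notch1a and notch3 in mutant heads and 19.2 in wildtype heads, a ratio of 1.55 (interval 1.46 to 1.66). For ascl1a there were 32.7 reads per 100 sox2 reads in mutant heads, against 65.7 in wildtype heads, a ratio of 0.497 (interval 0.449 to 0.549). For neurog1 there were 18.3 per 100 sox2 reads in mutant heads and 31.9 in wildtype heads, a ratio of 0.573 (interval 0.504 to 0.652). ascl1a had the lowest and sox2 the highest ratio among the members.

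The list of 24 measured neural progenitor genes leaned the same way as sox2, by small amounts. Of these 16 lay above 0 and 8 below, with a median log2 ratio of 0.17, and 1 was higher by at least 1.5-fold (4.17%, against 6.95% of all features). Without sox2 the median was 0.16 over 23 genes. The highest ratio was that of fabp7b, a fatty acid binding protein gene, with 20.1 CPM in mutant heads and 9.68 CPM in wildtype heads (ratio 2.08, interval 1.70 to 2.55). sox21a and sox21b, relatives of sox2, had ratios of 1.43 (interval 1.23 to 1.66) and 1.35 (interval 1.22 to 1.5). The most abundant genes of the list did not share a direction. fabp7a, a marker of radial glia, had 409 CPM in mutant heads, against 570 CPM in wildtype heads (1.39-fold lower, interval 1.35 to 1.44). SOX3 had 368 CPM in mutant heads and 387 CPM in wildtype heads. sox19a, another relative of sox2, had 357 CPM in mutant heads and 319 CPM in wildtype heads (ratio 1.12, interval 1.08 to 1.16), and was picked after its values were seen. The sums of the list, in which fabp7a weighs heavily, did not show the lean of its median: 3087 CPM in mutant heads and 3089 CPM in wildtype heads.

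Proliferation genes did not lean clearly in their median. Of 14 measured cell cycle genes 5 lay above 0 and 9 below, and the median log2 ratio was -0.04. Their sum was somewhat lower, with 7114 CPM in mutant heads and 7629 CPM in wildtype heads (ratio 0.933, interval 0.925 to 0.940). PCNA, a replication factor, had 1849 CPM in mutant heads, against 1881 CPM in wildtype heads, whereas mki67 and AURKB, both genes of dividing cells, differed in opposite directions. mki67 had 610 CPM in mutant heads and 897 CPM in wildtype heads (1.47-fold lower, interval 1.43 to 1.51). AURKB had 119 CPM in mutant heads and 71.8 CPM in wildtype heads (ratio 1.66, interval 1.54 to 1.80).

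elavl3 (ENSDARG00000014420), an RNA-binding protein gene that neurons switch on as they leave the cell cycle, had 846 CPM (14109 reads) in mutant heads and 1013 CPM (14337 reads) in wildtype heads. It was 1.20-fold lower (interval 1.17 to 1.23), which 14.9% of features above 25 CPM equalled or passed in the lower direction. In the list of postmitotic neuron genes, which holds elavl3, most genes leaned the same way. Of 45 measured, 39 lay below 0 (86.7%, against 50.2% of all features) and 6 above, with a median log2 ratio of -0.24, and without elavl3 38 of 44 lay below 0, with the same median. By at least 1.5-fold 3 were lower (6.67%, against 7.88% of all features) and none was higher. Among them were maptb, which encodes a microtubule-binding protein, with 21.9 CPM in mutant heads and 35.2 CPM in wildtype heads, and the splicing factor gene RBFOX1. RBFOX1 had 13.7 CPM in mutant heads and 22.1 CPM in wildtype heads. Of the 25 genes of the list that averaged 25 CPM or more, 2 were lower by at least 1.5-fold, where 3.79% of all such features were. Below 0 lay 23 of these 25, against 52.4% of such features. With deposited RPKM values (reads scaled by feature length and library depth) and a pseudocount of 1 RPKM, none of the 45 was past 1.5-fold. Under a pseudocount of 5 CPM, 1 was. ncam1a, an adhesion molecule of axons, was 1.46-fold lower (interval 1.40 to 1.52), and tubb2b, a neuronal tubulin and the most abundant of the list, 1.06-fold lower (interval 1.04 to 1.07).

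Genes of the step between progenitor and neuron had a median close to that of the postmitotic neuron list (-0.24). Of 16 measured, 12 were below 0 and 4 above, with a median log2 ratio of -0.20, and 2 were lower by at least 1.5-fold (12.5%, against 7.88% of all features). her13, a hes6-like gene, had 69.4 CPM in mutant heads and 119 CPM in wildtype heads (1.72-fold lower, interval 1.59 to 1.85). It was not picked for the list and came in because the names used call both it and hes6 by the symbol HES6. The share of 12.5% thus rests in part on a gene that was not chosen. The other gene lower by that much was a GADD45G copy with 81 reads in mutant heads and 116 in wildtype heads. A further GADD45G copy, read far more, had 183 CPM in mutant heads and 181 CPM in wildtype heads (ratio 1.01, interval 0.958 to 1.06). hes6, which promotes neuronal differentiation, had 103 CPM in mutant heads, against 152 CPM in wildtype heads (1.47-fold lower, interval 1.38 to 1.57), and BTG2, a gene of progenitors about to divide for the last time, 226 CPM in mutant heads and 244 CPM in wildtype heads.

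**Figure D4:**
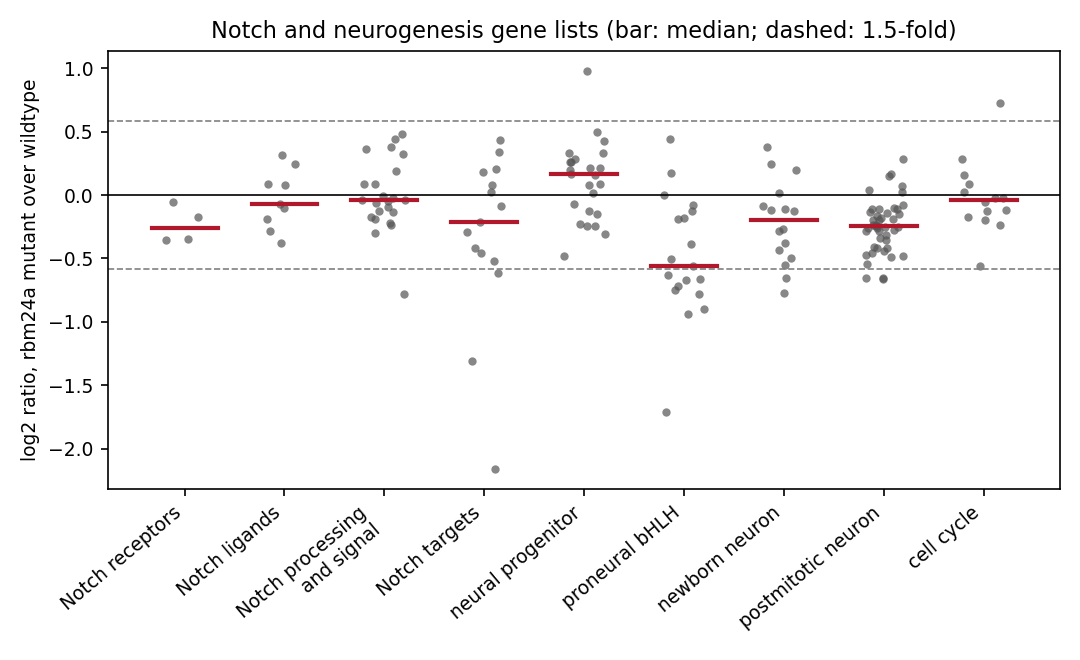
Log2 ratio (rbm24a mutant over wildtype, pseudocount 1 CPM) of each measured gene in 9 lists of Notch and neurogenesis genes, 1 point per gene, with the list median as a red bar and the 1.5-fold lines dashed. The median is above 0 for neural progenitor genes (0.17) and -0.24 for postmitotic neuron genes. It is lowest (-0.56) for the neural bHLH genes, labelled proneural bHLH in the figure though not all of them are proneural.

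Progenitor genes were set against the neuronal gene within each library, which removes any scaling between libraries. Together notch1a, notch3 and sox2 had 91.8 reads per 100 elavl3 reads in mutant heads and 89.8 in wildtype heads. The ratio was 1.02 (interval 0.988 to 1.06), so no difference in this balance was detectable at this depth. The sum hid opposite parts. sox2 had 21.1 reads per 100 elavl3 reads in mutant heads, against 14.4 in wildtype heads (ratio 1.46, interval 1.37 to 1.55). notch3 had 41.4 in mutant heads and 44.3 in wildtype heads (ratio 0.936, interval 0.897 to 0.976), and notch1a 29.3 in mutant heads and 31.1 in wildtype heads (ratio 0.943, interval 0.898 to 0.990). The receptor genes, with more reads, offset sox2. With the deposited RPKM values, which give sox2 more weight because of its short length, the same balance had a ratio of 1.18.

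Other members against elavl3 lay on both sides. dla had 35.1 reads per 100 elavl3 reads in mutant heads, against 27.8 in wildtype heads (ratio 1.26, interval 1.20 to 1.33), and ascl1b stood at 9.43 in mutant heads and 7.87 in wildtype heads (ratio 1.20, interval 1.1 to 1.3). ascl1a was at 6.88 in mutant heads and 9.49 in wildtype heads (ratio 0.725, interval 0.665 to 0.790), and neurog1 at 3.85 in mutant heads, against 4.60 in wildtype heads (ratio 0.836, interval 0.743 to 0.940). For neurod1 the interval held 1, with 5.20 in mutant heads and 5.69 in wildtype heads (ratio 0.913, interval 0.823 to 1.01). Over the whole lists, progenitor genes had 61.6 reads per 100 reads of postmitotic neuron genes in mutant heads and 52.0 in wildtype heads (ratio 1.18, interval 1.16 to 1.20). The progenitor sums were nearly the same, 3087 CPM in mutant heads and 3089 CPM in wildtype heads. The postmitotic neuron sums were 5014 CPM in mutant heads, against 5936 CPM in wildtype heads, so the ratio does not show a higher progenitor sum.

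Levels of different genes can be compared only per length, on the deposited RPKM scale. There sox2 was highest, with 86.1 RPKM in mutant heads, against 70.6 RPKM in wildtype heads, and neurod1 lowest, with 9.62 RPKM in mutant heads and 12.62 RPKM in wildtype heads. In the mutant library the order after sox2 was ascl1b (62.7), dla (61.7), dld (47.1), notch3 (44.3), elavl3 (31.2), ascl1a (29.5), neurog1 (23.4), notch1a (17.4) and notch1b (12.5). There ascl1b and dla, dld and notch3, and elavl3 and ascl1a could not be ordered within counting error. In the wildtype library it was ascl1b (62.6), dla (58.5), notch3 (56.7), dld (50.5), ascl1a (48.7), elavl3 (37.4), neurog1 (33.5), notch1a (22.1) and notch1b (14.05). There ascl1b and dla, dla and notch3, and dld and ascl1a could not be ordered. notch3 thus stood above dld, and ascl1a above elavl3, in the wildtype library alone. The length behind an RPKM value can be recovered from the counts, and it was 27096 bp for elavl3 and 4571 bp for neurod1, longer than the 19358 bp and 3351 bp that these genes span. Levels on this scale may therefore be understated for some genes more than others, and the order does not rank numbers of transcripts.

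No gene was singled out as resembling a member, since with 2 libraries a pattern is a single ratio. The number of features within 0.05 of a member on the log2 scale ran from 248 for ascl1a to 2351 for ascl1b. The authors' deposited table of called genes lists 37 genes, none with a fold below 2.01, and none of the 11 members is among them. Of the other genes in the neurogenesis lists, atoh7 is, with a fold of 3.41 there, written as wildtype over mutant.

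The dissection took the head in front of the ear, and genes of the tissue behind the cut were scarce in both libraries. Of 12 matched hindbrain and spinal Hox and segment genes 6 passed the filter, with 31.9 CPM in sum in mutant heads and 34.0 CPM in wildtype heads, 3 above 0 and 3 below. Neural crest markers had sums of 257 CPM in mutant heads, against 254 CPM in wildtype heads over 9 genes, 5 above 0 and 4 below. Of the 3 measured markers of myelinating glia, 2 were below 0 and 1 above. The one above was mbpb, a myelin basic protein gene, with 34.7 CPM in mutant heads and 21.0 CPM in wildtype heads.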

How the data were processed

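Per the labels' protocols, the libraries were TruSeq RNA and sequencing was paired, 100 bp, on a HiSeq 2000. DESeq2, HTSeq 0.6.1, HISAT2 2.0.1, cutadapt and bcl2fastq 2.17.1.14 are the programs in the submitters' processing notes, which name the build as GRCz11. What each program did, which annotation was counted and whether strand was used is not given in the sources used here, so reads of overlapping genes cannot be told apart. The protocol mentions independent samples in the plural, while 1 library per group was analysed here. The authors deposited whole-number read counts and RPKM values per feature. The length behind the RPKM values is not the deposited length column. Of 5947 features checked, 100.0% had the same implied length in both libraries within 1%, and 159 had one longer than the gene's span. In the authors' deposited table of called genes, values are a fold or ratio of wildtype over mutant, and its p-values were not used. No column belonged to other samples (0 columns).

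Counts were divided by the library total of all features (CPM). The log2 ratio has a pseudocount of 1 CPM and understates differences of low genes, while printed folds are CPM ratios without one. Fold intervals are 95% Clopper-Pearson, and those of ratios within a library come from the conditional odds ratio. Called means at least 1.5-fold or 2-fold on the log2 scale, among features that averaged 1 CPM or more. The steps were tested on simulated data. The 17 gene lists (254 symbols) and the members were chosen with earlier results of these data known. Of the symbols 160 matched a name exactly (case ignored), 72 without a final a or b, 6 by neighbours and 16 did not match. Names of the copies of nrarp, fabp7, hes6, ncam1, adam17, sox21 and myt1 were also given by neighbours. Neighbours were the rows within 10 places against 25 protein-coding genes on either side in RefSeq, which is of another build and was used for names alone. Named genes are the members, rbm24a and, of each list, up to 4 genes with the largest absolute log2 ratio and 2 with the highest mean, and values of some genes that this rule names are not reported here. Python 3.11.15, scipy 1.17.1, edgeR 4.0.16 (scaling only) and DESeq2 1.42.0 (scaling only) were used. Sequences are not printed.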

Additional observations from a re-analysis of the deposited data

How the results depend on the processing

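No paired analysis was possible because there is 1 library on each side, which also leaves nothing to compare once a library is dropped. Alternatives were pseudocounts of 0.1 and 5 CPM, TMM and DESeq2 scaling, library totals without the top 1% of features, deposited RPKM values and annotated genes alone. Lists and counts were also run with no filter and with a minimum mean of 5 CPM. Chosen after seeing the data were the filter at 25 CPM, the DLD row for dld, summed copies and the bHLH list without atoh7. All 78 alternative member ratios, the DLD row of another gene included, stayed within the counting interval of the value reported. ascl1a lay between -0.72 and -0.68, sox2 between 0.28 and 0.32 and notch3 between -0.36 and -0.32. Most settings could hardly move these ratios. TMM factors were 0.998 (mutant) and 1.002 (wildtype), and RPKM uses the same length in both libraries. All members averaged more than 25 CPM, where a pseudocount weighs little. List medians kept their sign except that of the ligands, which ran from -0.07 to 0.01. The bHLH median ran from -0.68 to -0.36, and its count of genes lower by 1.5-fold was 6 with a pseudocount of 5 CPM.

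The counts over all features moved most. Lower by 1.5-fold there were 588 with a pseudocount of 5 CPM, 789 with RPKM, 715 at 5 CPM and 228 at 25 CPM, and higher 465, 665, 642 and 151 under the same settings. Lower by 2-fold there were 830 with a pseudocount of 0.1 CPM, 164 with 5 CPM, 242 with RPKM, 243 at a mean of 5 CPM and 73 at 25 CPM, and higher 672, 97, 188, 171 and 37. By construction a larger pseudocount or a stricter filter leaves fewer low features past a fold. The balance of progenitor over elavl3 reads was 1.18 with RPKM, against 1.02. Of postmitotic neuron genes lower by 1.5-fold there was 1 with a pseudocount of 5 CPM and 0 with RPKM, against 3. These last shifts follow from how the values are built. RPKM gives short genes such as sox2 more weight in a sum. A pseudocount shrinks the log2 ratios of low values, and 1 RPKM was added in the RPKM setting. There maptb, for 1, had only 1.55 RPKM in mutant heads and 2.49 RPKM in wildtype heads.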
